A study of Mus musculus with 11 samples.

Results

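The 9 genes described here, of 37991 in the deposited table, are transcription factors that pattern the embryonic cerebral cortex or carry its neurogenic step: Pax6, Lhx2, Emx2, Emx1, Nr2f1, Nr2f2, Neurog2, Eomes and Tbr1. They were taken from the table by gene symbol. RNA had been collected from primary cultures of C57BL/6J mice, begun as neural stem cells of the E14.5 frontal cortex. The 3 NSC libraries came from cells at day 0 in Complete Embryonic NeuroCult Proliferation Medium. The day 4 libraries followed a switch to 1 of 3 differentiation media, each with GlutaMAX-1. The 3 Astrocyte libraries had DMEM containing N-2 and fetal bovine serum (both at 1%), and the 3 Neuron libraries had Neurobasal containing B-27 (2%). The 2 Oligodendrocyte libraries had the latter plus 30 ng/mL of T3, a thyroid hormone. The names Astrocyte, Neuron and Oligodendrocyte below stand for these media and not for cell types.

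The labels carry no transgene, knockout or sorting, so each library is the RNA of a whole culture. In such bulk RNA, fewer cells of a type and less RNA per cell cannot be told apart. Proliferation medium was sampled at day 0 and not at day 4, so the change of medium and the time in culture cannot be told apart in any comparison with NSC. The series text calls the replicates biological, but nothing says which came from separate cultures or litters, so the p-values measure only the spread between these libraries, which may be technical.

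In the embryo, the cortex arises from the dorsal telencephalon, the pallium. Its radial glia express the homeobox factors Pax6, Lhx2, Emx1 and Emx2 and the orphan nuclear receptors Nr2f1 (COUP-TFI) and Nr2f2 (COUP-TFII), several of them in gradients that set the areas of the cortex: Pax6 is highest rostrally and laterally, and Emx2 and Nr2f1 are highest caudally. The proneural factor Neurog2 starts the glutamatergic programme, Eomes (Tbr2) marks intermediate progenitors, and Tbr1 marks early postmitotic projection neurons. The comparisons ask whether RNA of these factors was kept in culture and after the change of medium.

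The data split the 9 genes into those kept at substantial levels and those near the detection limit. Pax6, Lhx2, Emx2 and Nr2f1 exceeded 11 CPM (read counts that the authors scaled to a common library total) in every library, and Nr2f2 exceeded 1 CPM in every library. Neurog2 exceeded 1 CPM only in the Neuron and Oligodendrocyte libraries. Eomes, Tbr1 and Emx1 stayed under 0.65 CPM in all 11 libraries, and Emx1 was at 0 in 7 of them. After 4 days Pax6 was 2.30-fold higher with the astrocyte medium and 2.15-fold higher with the neuron medium than in NSC, whereas with the oligodendrocyte medium it was 1.04-fold (folds of CPM + 1). Emx2, Nr2f1 and Nr2f2 were lowest in the Oligodendrocyte libraries.

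The promoters of 3 of the genes are shown because they belong to the 2 abundant factors that rose together in the neuron medium, Pax6 and Lhx2, and to a factor near the detection limit, Eomes. Each is the 250 bases upstream of an annotated start in RefSeq (build GRCm38.p6), read 5′ to 3′ on the strand of the gene, with the dinucleotide CG in capitals. All 9 genes matched an entry, and these 3 had a window free of annotated exons. The windows lie at chr2:105668646-105668895 (Pax6, plus strand), chr2:38339031-38339280 (Lhx2, plus strand) and chr9:118477939-118478188 (Eomes, plus strand).
Pax6: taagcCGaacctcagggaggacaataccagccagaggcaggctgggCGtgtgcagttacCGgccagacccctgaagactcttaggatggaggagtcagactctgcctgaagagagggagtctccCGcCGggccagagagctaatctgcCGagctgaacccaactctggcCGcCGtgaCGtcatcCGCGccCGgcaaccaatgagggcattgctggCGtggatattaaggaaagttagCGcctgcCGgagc
Lhx2: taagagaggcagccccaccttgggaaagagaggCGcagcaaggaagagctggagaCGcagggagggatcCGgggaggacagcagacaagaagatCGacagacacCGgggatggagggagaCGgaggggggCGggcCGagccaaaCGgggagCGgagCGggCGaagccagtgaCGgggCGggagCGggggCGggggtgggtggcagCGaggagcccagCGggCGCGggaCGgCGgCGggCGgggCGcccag
Eomes: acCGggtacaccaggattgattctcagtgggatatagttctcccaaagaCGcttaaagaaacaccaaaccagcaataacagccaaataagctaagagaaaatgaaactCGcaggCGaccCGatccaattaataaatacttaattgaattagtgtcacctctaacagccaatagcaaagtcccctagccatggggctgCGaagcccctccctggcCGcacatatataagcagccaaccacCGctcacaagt
The Lhx2 window held 25 CG and a GC content of 72.8%, and the Pax6 window held 15 CG and 60.8%. The Eomes window held 8 CG and 46.4%. Among all 32851 windows of this length in the RefSeq table the median was 6 CG, and 10.7% held at least as many as Lhx2, 27.3% as Pax6 and 43.0% as Eomes. The core letters recognised by many homeodomain proteins, TAAT (searched as TAAT and its reverse complement ATTA, overlaps counted), occurred 4 times in the Eomes window and 2 times in the Pax6 window, and 0 times in the Lhx2 window. At least 1 such match was present in 54.9% of all windows. These are counts of letters and do not show binding sites.

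Compared per kilobase of annotated exon (GENCODE gene models on GRCm38, used only for length), the NSC levels ran from Lhx2 (12.2 ± 0.815 CPM per kb, SD, n = 3) through Emx2 (8.35 ± 0.530) and Nr2f1 (4.91 ± 0.382) to Pax6 (3.15 ± 0.126). Nr2f2 followed at 0.551 ± 0.0854 CPM per kb. Eomes stood at 0.114 ± 0.0348, and Tbr1 (0.0468 ± 0.00557) and Neurog2 (0.0449 ± 0.0162) did not differ beyond their spread. The place of Pax6 depends on the gene model: counted over the exons of its basic coding transcripts only, its level was 5.34 CPM per kb, close to the 5.53 of Nr2f1. In the Neuron libraries Lhx2 remained highest, at 21.6 ± 1.19 CPM per kb over all exons, ahead of Emx2 (7.25 ± 0.108) and Pax6 (6.88 ± 0.406), whose difference was within their spread. Over basic coding exons Pax6 (11.7 ± 0.689) stood above Emx2 (7.46 ± 0.111) there. In the Oligodendrocyte libraries (n = 2) Lhx2 stood at 15.4 ± 1.87 CPM per kb, Emx2 at 4.02 ± 0.174, Pax6 at 3.27 ± 0.291 and Nr2f1 at 2.88 ± 0.249. Over basic coding exons Pax6 was again above Emx2 (5.55 ± 0.494 and 4.14 ± 0.179), so the order of these genes turns with the gene model.

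**Figure D1:**
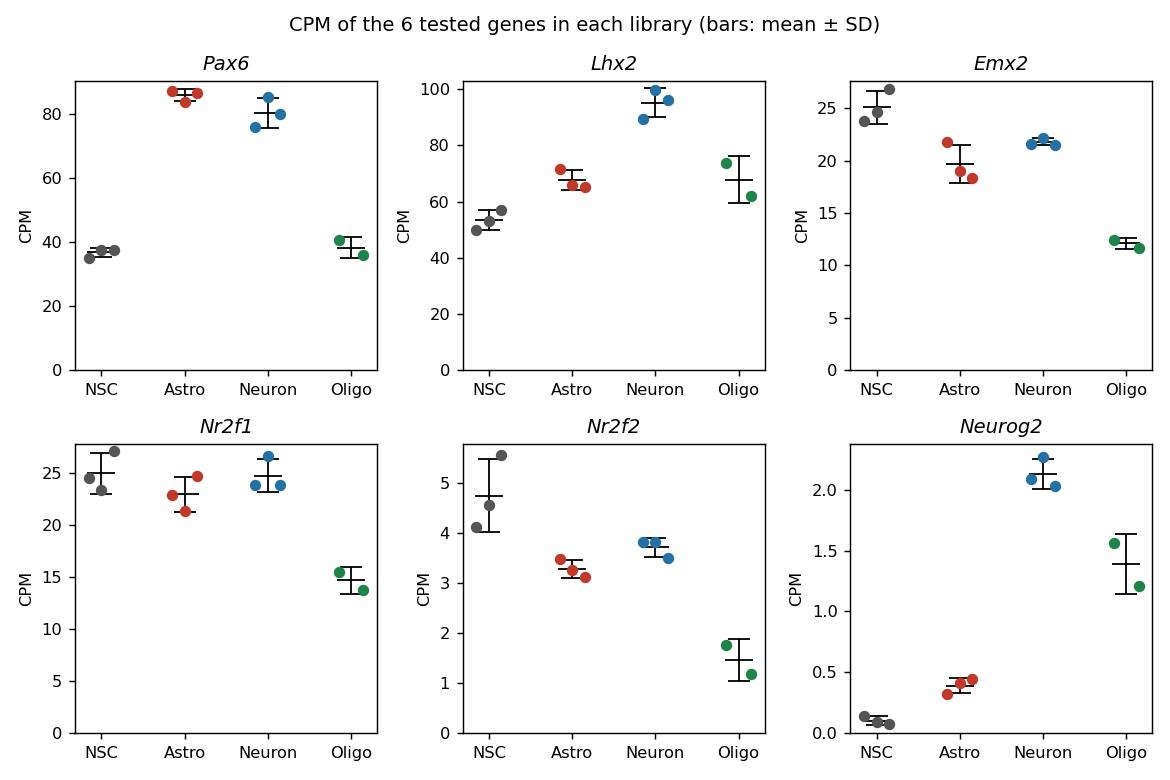
CPM (y axis, linear from 0) of Pax6, Lhx2, Emx2, Nr2f1, Nr2f2 and Neurog2 in each library, by group (x axis), with black bars for the mean ± SD of 3 libraries (2 for Oligodendrocyte). Pax6 forms a high pair of groups (Astrocyte, Neuron) and a low pair (NSC, Oligodendrocyte), whereas Emx2, Nr2f1 and Nr2f2 are lowest in Oligodendrocyte.

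Pax6, the paired-box and homeobox factor of radial glia (Ensembl ENSMUSG00000027168; mm9 chromosome 2, 105509053 to 105543317, plus strand), was listed at 35.1, 37.6 and 37.7 CPM in NSC. It reached 87.1, 83.9 and 86.7 CPM in the Astrocyte libraries and 75.9, 85.4 and 79.9 CPM in the Neuron libraries. The Oligodendrocyte libraries held 40.7 and 35.9 CPM. Each Astrocyte and Neuron library exceeded all NSC and Oligodendrocyte libraries, and of the Oligodendrocyte libraries 1 lay within the NSC range and 1 above it. The rise over NSC was 1.20 in log2 fold change (SE 0.065, limma adjusted p = 6.92e-10) with the astrocyte medium and 1.11 (SE 0.065, adjusted p = 1.83e-09) with the neuron medium. With the oligodendrocyte medium the difference was 0.05 (95% interval -0.10 to 0.21, adjusted p = 0.509). All log2 fold changes are of CPM + 1 and come from 1 linear model of the 11 libraries, with 0.05 as the threshold for the adjusted p.

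The oligodendrocyte medium was the neuron medium plus T3, so this pair differs by a single named ingredient. Pax6 with the added T3 stood at 0.482-fold of its level in the neuron medium alone (log2 fold change -1.05, SE 0.073, adjusted p = 4.36e-08). Against the astrocyte medium it was 0.451-fold (log2 fold change -1.15, SE 0.073, adjusted p = 3.87e-08). The Astrocyte and Neuron libraries overlapped, and their difference of 0.10 (95% interval -0.05 to 0.24) did not pass the test (adjusted p = 0.221). The antisense gene Pax6os1 overlaps Pax6 by 1435 bases in the table's coordinates, but its highest value in a library was 0.39 CPM.

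Lhx2 is a LIM-homeodomain factor that selects cortical against hem fate (ENSMUSG00000000247; mm9 chromosome 2, 38194801 to 38225253, plus strand). Its levels were 49.98, 53.1 and 57.1 CPM in NSC and 71.6, 65.8 and 65.1 CPM in the Astrocyte libraries. They were 89.4, 99.7 and 96.0 CPM in the Neuron libraries and 73.7 and 62.0 CPM in the Oligodendrocyte libraries. Every day 4 library exceeded every NSC library, and the Neuron libraries exceeded all others. Lhx2 rose by 0.82 in log2 fold change with the neuron medium (SE 0.077, adjusted p = 2.47e-07), by 0.33 with the astrocyte medium (SE 0.077, adjusted p = 0.00118) and by 0.34 with the oligodendrocyte medium (SE 0.086, adjusted p = 0.00267). The last of these calls was lost without Oligodendrocyte replicate 1 (0.21, adjusted p = 0.0686), and both of the smaller rises were lost under median-of-ratios scaling (0.16 and 0.12). With T3, Lhx2 was 0.715-fold of its level in the neuron medium (adjusted p = 0.00024). The Oligodendrocyte and Astrocyte groups differed by 0.00 (95% interval -0.18 to 0.19).

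Emx2, the homeobox factor of the caudal and medial pallium (ENSMUSG00000043969; mm9 chromosome 19, 59533180 to 59539847, plus strand), had 23.8, 24.6 and 26.8 CPM in NSC. The Astrocyte libraries held 21.8, 19.0 and 18.4 CPM, and the Neuron libraries 21.6, 22.1 and 21.5 CPM. Its lowest values were 12.4 and 11.7 CPM, in the Oligodendrocyte libraries. No day 4 library reached the lowest NSC library, and both Oligodendrocyte libraries lay below all others. Emx2 fell in all 3 media, by 1.00 on the log2 scale with the oligodendrocyte medium (SE 0.085, adjusted p = 1.09e-07), by 0.34 with the astrocyte medium (SE 0.076, adjusted p = 0.00105) and by 0.19 with the neuron medium (SE 0.076, adjusted p = 0.0295). The last fall did not pass under quantile normalization (-0.12, adjusted p = 0.135) or when NSC replicate 2, NSC replicate 3, Neuron replicate 1 or Neuron replicate 3 was left out, and it ranged over all leave-outs from -0.23 to -0.15. T3 added to the neuron medium went with a level of 0.574-fold (log2 fold change -0.80, SE 0.085, adjusted p = 2.43e-06).

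Emx2 has a divergent neighbour, the noncoding Emx2os, on the opposite strand (mm9 chromosome 19, 59499594 to 59533125), with a gap of 54 bases and no overlap. Emx2os averaged 3.79 ± 0.0551 CPM in NSC, 3.89 ± 0.354 in Astrocyte, 4.63 ± 0.527 in Neuron and 1.90 ± 0.0495 in Oligodendrocyte libraries. It too was lower with T3 than in the neuron medium alone (log2 fold change -0.96, adjusted p = 2.08e-06) and lower than in NSC (-0.73, adjusted p = 1.41e-05). In the neuron medium, where Emx2 fell, Emx2os differed from NSC by 0.23 (adjusted p = 0.0283), but this was 0.17 under median-of-ratios scaling (adjusted p = 0.0681) and -0.10 under quantile normalization (adjusted p = 0.304).

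The nuclear receptor Nr2f1 (ENSMUSG00000069171; mm9 chromosome 13, 78328234 to 78339018, minus strand) was listed at 24.5, 23.4 and 27.2 CPM in NSC. It had 23.0, 21.4 and 24.8 CPM in the Astrocyte and 23.9, 26.7 and 23.9 CPM in the Neuron libraries. The Oligodendrocyte libraries held 15.6 and 13.8 CPM. The first 3 groups overlapped one another, and both Oligodendrocyte libraries lay below all of them. The differences from NSC were -0.11 with the astrocyte medium (95% interval -0.29 to 0.06, adjusted p = 0.211) and -0.01 with the neuron medium (-0.19 to 0.17, adjusted p = 0.907), and neither passed. The former was called lower with median-of-ratios scaling (-0.29, adjusted p = 0.0056) and after quantile normalization (-0.19, adjusted p = 0.041). With the oligodendrocyte medium Nr2f1 fell by 0.73 against NSC (SE 0.092, adjusted p = 5.72e-06), by 0.72 against Neuron (SE 0.092, adjusted p = 1.33e-05) and by 0.62 against Astrocyte libraries (SE 0.092, adjusted p = 8.8e-05).

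The antisense gene A830082K12Rik overlaps Nr2f1 by 1741 bases. It averaged 3.36 ± 0.199 CPM in NSC, 6.12 ± 0.372 in Astrocyte, 6.10 ± 0.257 in Neuron and 3.42 ± 0.424 in Oligodendrocyte libraries, so it rose with both the astrocyte and the neuron medium (log2 fold changes 0.71, adjusted p = 2.91e-06, and 0.70, adjusted p = 3.13e-06). Under quantile normalization the first of these was 0.17 (adjusted p = 0.0503). The kit keeps the strand of the RNA, but whether the counting used it is not given in the sources used here, so reads from the overlapping stretch cannot be assigned between these genes with certainty.

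Nr2f2, the close paralog of Nr2f1 that marks caudal and ventral territories (ENSMUSG00000030551; mm9 chromosome 7, 77496832 to 77511621, minus strand), had 4.12, 4.57 and 5.56 CPM in NSC. It was lower in the Astrocyte libraries, at 3.48, 3.25 and 3.11 CPM, and in the Neuron libraries, at 3.82, 3.81 and 3.50 CPM. The Oligodendrocyte libraries held 1.76 and 1.17 CPM. None of the 4 groups overlapped another. Nr2f2 fell by 1.22 on the log2 scale with the oligodendrocyte medium (SE 0.123, adjusted p = 6.09e-07) and by 0.42 with the astrocyte medium (SE 0.110, adjusted p = 0.00307). The fall of 0.28 with the neuron medium (adjusted p = 0.0303) was lost without NSC replicate 3 (-0.18, adjusted p = 0.152) or Neuron replicate 3 (-0.25, adjusted p = 0.0908), with a pseudocount of 0.1 CPM (-0.34, adjusted p = 0.0547), and with no filter on low genes (-0.28, adjusted p = 0.0782). T3 added to the neuron medium went with 0.520-fold (log2 fold change -0.94, SE 0.123, adjusted p = 1.67e-05).

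**Figure D2:**
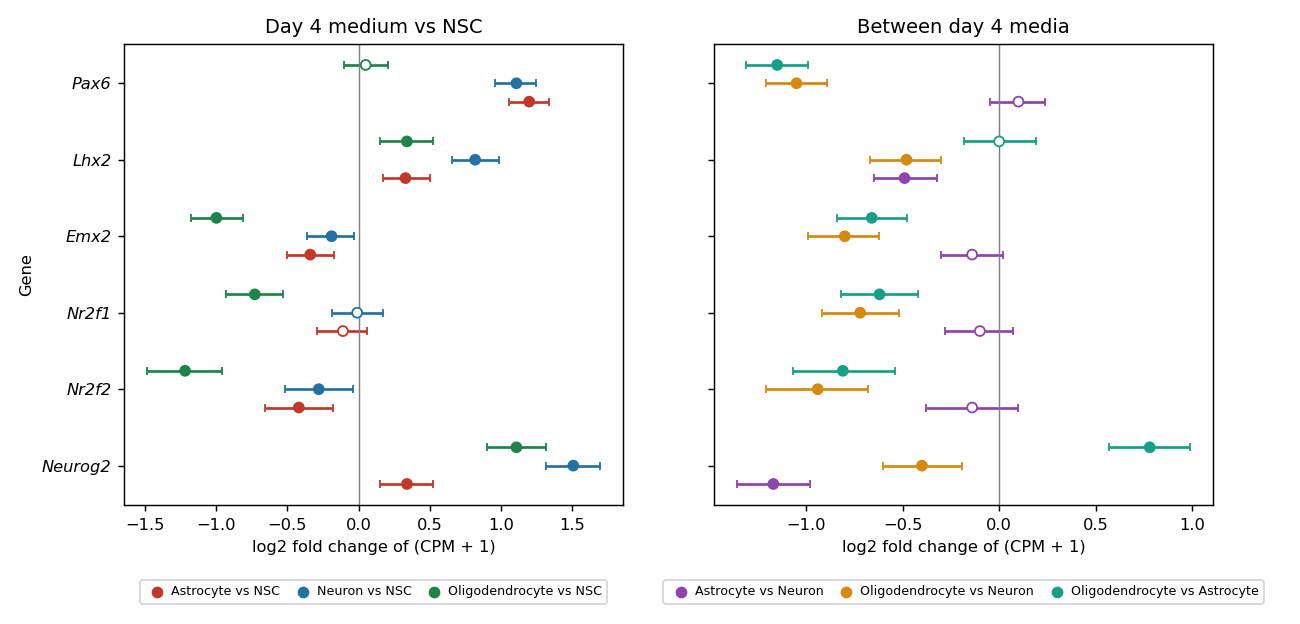
Log2 fold changes of CPM + 1 (x axis) with 95% intervals for Pax6, Lhx2, Emx2, Nr2f1, Nr2f2 and Neurog2 (y axis), for each day 4 medium against NSC (left) and between media (right); filled points passed an adjusted p under 0.05 and open points did not. In the comparison of Oligodendrocyte with Neuron libraries the 6 points lie below 0, from -0.40 for Neurog2 to -1.05 for Pax6.

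Levels of the paired patterning factors were also compared within a library. The log2 ratio of Pax6 to Emx2, the rostral against the caudal factor, was 0.54, 0.59 and 0.47 in NSC. It was 1.95, 2.09 and 2.18 in Astrocyte, 1.77, 1.90 and 1.85 in Neuron, and 1.63 and 1.54 in Oligodendrocyte libraries. No group overlapped another, and the ratio was higher in every day 4 library, by 1.54, 1.30 and 1.05 on average in that order. In the oligodendrocyte medium this came with Pax6 at 40.7 and 35.9 CPM, beside 35.1 to 37.7 in NSC, and a lower Emx2, and in the other 2 media with a higher Pax6 and a smaller fall of Emx2. The exact two-sided permutation test gave p = 0.10 for each of the 6 pairs (0.10 after adjustment over the pairs), which is the smallest p that groups of 3 and 3, or 3 and 2, allow, so the test cannot pass 0.05 here.

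The ratio of Nr2f1 to Nr2f2 was 2.18 ± 0.117 (SD, n = 3) in NSC, 2.49 ± 0.138 in Astrocyte, 2.45 ± 0.0771 in Neuron and 2.68 ± 0.129 (n = 2) in Oligodendrocyte libraries, on the log2 scale of CPM + 1. All 3 day 4 groups lay above NSC without overlap (exact permutation p = 0.10, adjusted 0.15 for each). Since Nr2f2 is low, the pseudocount sets part of these values: without it the differences from NSC were 0.41, 0.34 and 0.94, and with a pseudocount of 5 CPM the difference for Oligodendrocyte was -0.02. The ratio of Emx1 to Emx2 is not interpreted, because Emx1 was at the detection limit.

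**Figure D3:**
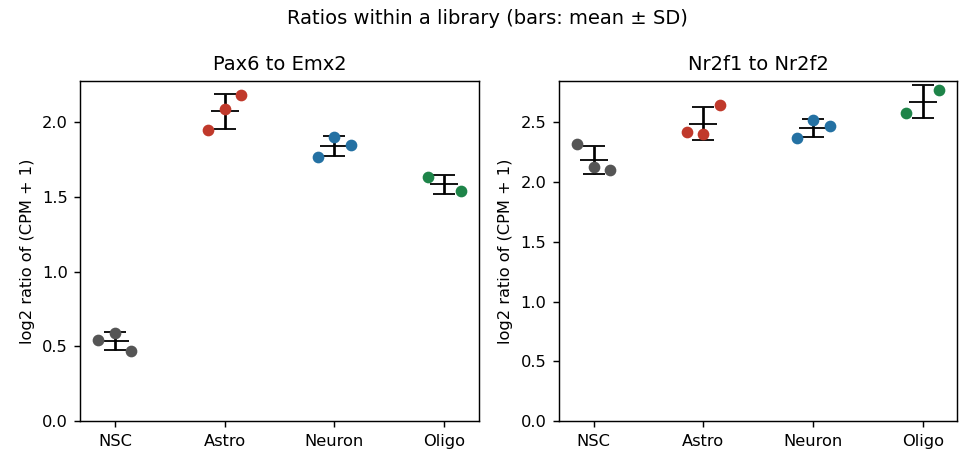
Log2 ratio of Pax6 to Emx2 (left) and of Nr2f1 to Nr2f2 (right), each from CPM + 1 within a library (y axis), by group (x axis); points are libraries and bars the mean ± SD. The Pax6 to Emx2 ratio lies at 0.47 to 0.59 in NSC and at 1.54 to 2.18 in the day 4 libraries.

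Neurog2, the basic helix-loop-helix factor that commits pallial progenitors to glutamatergic neurons (ENSMUSG00000027967; mm9 chromosome 3, 127336054 to 127338549, plus strand), was listed at 0.14, 0.09 and 0.07 CPM in NSC. It had 0.32, 0.41 and 0.44 CPM in the Astrocyte libraries, 2.09, 2.27 and 2.03 CPM in the Neuron libraries and 1.56 and 1.21 CPM in the Oligodendrocyte libraries. The 4 groups did not overlap. The low values of a library fall on steps of 1 read, from which 17 reads were estimated over the NSC libraries together, 73 over Astrocyte, 349 over Neuron and 177 over Oligodendrocyte libraries. Per read sequenced, the Neuron level was 22.0 times that of NSC (95% interval 13.6 to 38.3), the Oligodendrocyte level 14.4 times (8.72 to 25.2) and the Astrocyte level 4.03 times (2.35 to 7.29). These intervals, and those below, cover counting error only. In limma the log2 fold changes of CPM + 1 were 1.51 (SE 0.087, adjusted p = 1.32e-09), 1.11 (SE 0.097, adjusted p = 1.3e-07) and 0.34 (SE 0.087, adjusted p = 0.00256) in the same order, which understates the change of so low a gene. Of these rises, that of the Astrocyte libraries changed sign under quantile normalization (-0.16, adjusted p = 0.122).

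With T3, Neurog2 was lower than in the neuron medium alone (0.652 times, interval 0.541 to 0.783; log2 fold change -0.40, SE 0.097, adjusted p = 0.0027), though this call was lost without Oligodendrocyte replicate 2 (-0.29, adjusted p = 0.0509). Neurog2 passed the filter (at least 1 CPM in at least 2 libraries) only through its values in the Neuron and Oligodendrocyte libraries, so a gene with its NSC level throughout would not have been tested.

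Eomes, the T-box factor of intermediate progenitors (ENSMUSG00000032446; mm9 chromosome 9, 118387330 to 118395250, plus strand), had 0.64, 0.38 and 0.40 CPM in NSC and 0.27, 0.38 and 0.39 CPM in the Astrocyte libraries. The Neuron libraries held 0.24, 0.26 and 0.24 CPM, and the Oligodendrocyte libraries 0 and 0.05 CPM. It did not follow Neurog2: its highest values were in NSC, where Neurog2 was lowest. About 84 reads were estimated over the NSC libraries, 65 over Astrocyte, 41 over Neuron and 3 over Oligodendrocyte libraries. The Oligodendrocyte level was 0.0493 times that of NSC (95% interval 0.00996 to 0.149) and 0.0940 times that of Neuron (0.0186 to 0.295). The Neuron level was 0.524 times that of NSC (0.351 to 0.770), and for Astrocyte the interval of 0.517 to 1.02 included equality. Of the other genes of an intermediate progenitor list, the stress and cell cycle gene Gadd45g was lower in Oligodendrocyte than in Neuron libraries (log2 fold change -0.82, adjusted p = 2.63e-05), as were 23.6% of all tested genes. It had 33.5 ± 1.70 CPM in Neuron and 18.7 ± 3.42 CPM in Oligodendrocyte libraries.

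Tbr1, the T-box factor of early projection neurons (ENSMUSG00000035033; mm9 chromosome 2, 61640987 to 61652171, plus strand), was listed at 0.25, 0.23 and 0.29 CPM in NSC. The day 4 libraries were all lower, with 0.06, 0.05 and 0.08 CPM in Astrocyte, 0.12, 0.09 and 0.15 CPM in Neuron and 0.06 and 0.09 CPM in Oligodendrocyte libraries. Relative to NSC the levels were 0.250 (95% interval 0.121 to 0.481), 0.477 (0.267 to 0.824) and 0.306 (0.138 to 0.617) times, from 45 estimated reads in NSC and 12, 20 and 10 in the day 4 groups. Eomes and Tbr1 were below the filter of 1 CPM in 2 libraries and are described by these values only.

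Emx1, a homeobox factor largely restricted to the dorsal pallium, whose locus drives a widely used cortical Cre line (ENSMUSG00000033726; mm9 chromosome 6, 85137432 to 85154456, plus strand), was at 0 in all 3 NSC and both Oligodendrocyte libraries. It had 0.03, 0.03 and 0.08 CPM in the Astrocyte libraries, about 9 reads in all, and 0.04, 0 and 0 CPM in the Neuron libraries. With 176.0 M (mega) reads estimated over the NSC libraries, 0 reads allow a level of up to 0.017 CPM there (3 reads over the group), and up to 0.024 CPM in Oligodendrocyte libraries. The upper ends of the two-sided 95% Poisson intervals, which the plot of low genes draws, are 0.0210 and 0.0289 CPM. Emx1 and its paralog Emx2 thus differed in the same NSC libraries from no read detected to 25.1 ± 1.59 CPM. The group means of Emx1 per kb were between 0 and 0.0214 CPM, against 4.02 to 8.35 CPM per kb for Emx2.

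**Figure D4:**
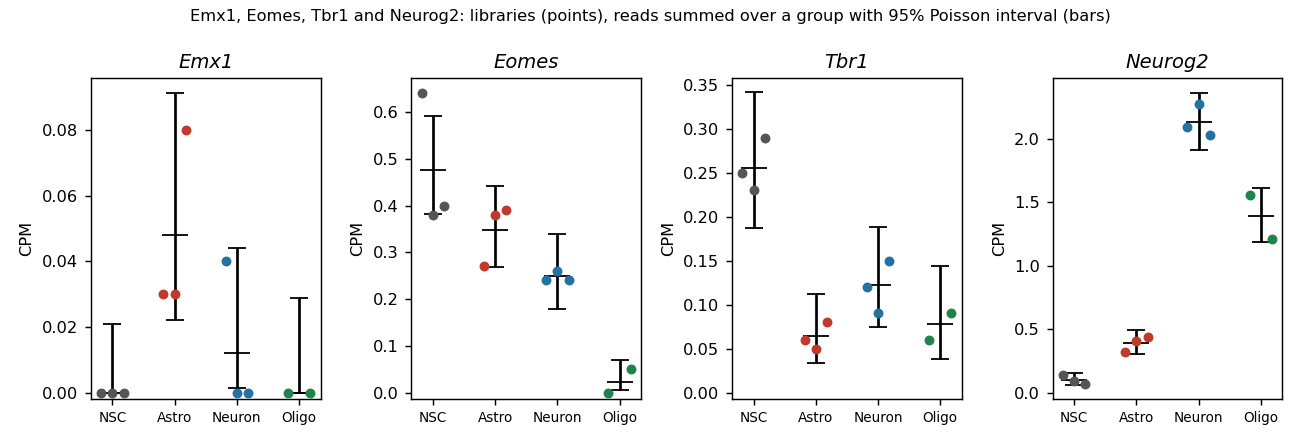
CPM (y axis, a linear scale of its own in each panel) of Emx1, Eomes, Tbr1 and Neurog2 by group (x axis); points are libraries and bars show the reads summed over a group with their 95% Poisson interval. Eomes and Tbr1 are highest in NSC, Neurog2 in Neuron, and Emx1 stays at or below 0.08 CPM in each library.

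Counts of the 6 tested genes have to be read against the whole table, since most genes were called. Against NSC, 5 of the 6 were called with the astrocyte medium (3 higher and 2 lower), where 83.6% of 13342 tested genes were called, 48.0% higher and 35.6% lower. The neuron medium also gave 5 (3 higher and 2 lower; 83.1% of all tested genes, 43.5% higher and 39.6% lower), and the oligodendrocyte medium gave 5 (2 higher and 3 lower; 80.2% of all tested genes, 48.1% higher and 32.2% lower). These 3 comparisons share the NSC libraries. Changes of at least 2-fold were made by 1, 2 and 2 of the 6, where 33.7%, 31.8% and 32.0% of all tested genes changed that much. Neurog2, which could be tested only through its higher day 4 values, is among the higher genes in each; without it 4 of 5 were called in each comparison, and 1 of the 5 changed at least 2-fold in each. The counts of called genes against NSC are thus near the background and say little about these genes as a set.

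Between media, all 6 were called lower in Oligodendrocyte than in Neuron libraries, where 67.5% of all tested genes were called, 23.6% lower and 43.9% higher. The median log2 fold change of the 6 was -0.76, beside 0.15 for all tested genes. The background shifts with the scaling: of all called genes, 65.1% were higher in Oligodendrocyte libraries with CPM as deposited, 52.5% with median-of-ratios scaling and 48.0% after quantile normalization. Under median-of-ratios scaling the median of all tested genes was 0.03 there, and 0.00 for Oligodendrocyte against NSC in place of 0.19. Against Astrocyte libraries 5 were called, 4 of them lower (52.2% of all tested genes called, 23.5% lower and 28.7% higher), with Neurog2 the 1 that was higher. Between Astrocyte and Neuron libraries 2 were called, Lhx2 and Neurog2, both lower in Astrocyte libraries (62.2% called, 22.0% lower and 40.3% higher). With median-of-ratios scaling this count was 4 and with quantile normalization 5, and 52.8% and 48.5% of all called genes were higher in Astrocyte libraries, against 64.7% with CPM as deposited. Neurog2 had 0.390 ± 0.0624 CPM in Astrocyte libraries and passed the filter only through Neuron and Oligodendrocyte libraries. The filter thus set its direction when either of these was compared with Astrocyte libraries. Without Neurog2, Lhx2 alone was called between Astrocyte and Neuron libraries with CPM as deposited. For Oligodendrocyte against NSC the share of called genes that were higher was 59.9% with CPM as deposited, 49.9% with median-of-ratios scaling and 47.7% after quantile normalization. The falls of Pax6, Emx2, Nr2f1 and Nr2f2 against both other media passed in each alternative analysis in which the gene was tested, leave-outs of a library included. In each of these 3 comparisons 1 of the 6 changed at least 2-fold (Pax6 in both with Oligodendrocyte libraries, Neurog2 in the other), where 12.5%, 7.94% and 9.34% of all tested genes did. Wherever 1 of the 6 was called, no library of either group lay within the range of the other. That was true of 86.2%, 83.2% and 89.3% of all tested genes for the Astrocyte, Neuron and Oligodendrocyte media against NSC, and of 75.7%, 71.7% and 63.0% for Oligodendrocyte against Neuron, Oligodendrocyte against Astrocyte and Astrocyte against Neuron. Of those not called, Nr2f2 alone did not overlap, between Astrocyte and Neuron libraries (log2 fold change -0.14, adjusted p = 0.294).

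Across the 11 libraries, Emx2 moved most closely with Nr2f2 (Pearson r = 0.98 of log2 values) and Nr2f1 (0.93), and Lhx2 with Neurog2 (0.88), whereas Pax6 and Emx2 were nearly unrelated (0.16). These are descriptions of 4 group levels more than of 11 independent points. Among 10300 other genes with a group mean of at least 10 CPM, those with the pattern most like Pax6 were Zfp36l1 (r = 0.994), an RNA-binding protein that speeds mRNA decay, and Plscr1 (0.991). Zfp36l1 averaged 87.0 CPM in NSC, 157 in Astrocyte, 149 in Neuron and 87.2 in Oligodendrocyte libraries. Nearest to Lhx2 were Kbtbd3 (0.977) and the glycine decarboxylase Gldc (0.975), and nearest to Emx2 were Coro2b (0.985) and Cd1d1 (0.975). Nr2f1 was followed by Fndc4 (0.980) and Nt5dc2 (0.977), Nr2f2 by Cd1d1 (0.970), and Neurog2 by the glycine receptor subunit Glrb (0.988) and Shisa7 (0.977).

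Further patterning genes of the telencephalon were read from a list of 18, of which 11 passed the filter. The zinc-finger factor Zic1 was lower in Oligodendrocyte libraries (45.4 ± 4.02 CPM) than in NSC (73.6 ± 1.24 CPM; log2 fold change -0.69, adjusted p = 6.69e-07). Of the 11 tested genes 8 rose and 1 fell with the astrocyte medium (median 0.53), 6 rose and 2 fell with the neuron medium (0.21), and 4 rose and 3 fell with the oligodendrocyte medium (0.05). The medians over all tested genes were 0.15, 0.06 and 0.19. In the same order, 48.0%, 43.5% and 48.1% of all tested genes rose, and 35.6%, 39.6% and 32.2% fell. For the oligodendrocyte medium the direction of the list's median depends on the scaling: it was -0.16 with median-of-ratios scaling and -0.13 after quantile normalization. Fezf1, an anterior patterning factor, was at 0 in each library.

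Genes of other regions of the neural tube were set beside these. Among hindbrain and spinal cord genes, the 16 Hox genes listed stayed at or below 0.15 CPM in each library, and Hoxb5, Hoxb6, Hoxb8, Hoxc4, Hoxc8, Hoxd3 and Hoxd4 were at 0 throughout. Egr2, another gene of the list, is also an immediate early gene and had 6.87 ± 0.528 CPM in NSC and 1.16 ± 0.206 in Astrocyte libraries. Of 19 diencephalic and midbrain genes 7 passed the filter. En2, a homeobox gene of the midbrain and anterior hindbrain, had 33.5 ± 2.53 CPM in NSC and fell to 14.1 ± 0.502, 9.99 ± 0.294 and 11.1 ± 1.15 CPM in Astrocyte, Neuron and Oligodendrocyte libraries (log2 fold changes -1.18, -1.65 and -1.51, the largest adjusted p being 5.44e-09). Gbx2 fell from 5.34 ± 0.241 CPM in NSC to 1.20 ± 0.168, 1.19 ± 0.167 and 0.500 ± 0.0849 CPM, and Tcf7l2, which is also made by glia, rose from 33.9 ± 0.757 CPM to 54.9 ± 3.75, 79.0 ± 2.71 and 60.2 ± 1.28 CPM. Some other genes of the list were low but detected in NSC, with means of 1.65 CPM for Barhl2, 1.47 for Irx1, 1.03 for Irx3, 1.01 for Pax3 and 0.837 for Pax7. Several midbrain genes of the list were near 0 in NSC, with means of 0.277 CPM for En1, 0.190 for Dmbx1, 0.130 for Pax8, 0.0267 for Lmx1b, 0.0133 for Pax2 and 0 for Pax5 and Foxa1.

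Ventral telencephalic genes were also present. Of 19 subpallial and GABAergic genes 12 passed the filter, but Dlx5, Dlx6 and Gad2 (means of 0.0100, 0 and 0.153 CPM in NSC) passed only through day 4 libraries, so the direction of these was set by the filter. Of the 12, these 3 included, 9, 9 and 7 were higher in the Astrocyte, Neuron and Oligodendrocyte libraries than in NSC and 3, 2 and 4 were lower, where 48.0%, 43.5% and 48.1% of all tested genes were higher. Dlx1, a homeobox factor of GABAergic progenitors, rose from 3.79 ± 0.166 CPM in NSC to 45.4 ± 7.87, 24.2 ± 4.12 and 10.7 ± 1.75 CPM. Lhx8 was at 0 in each library. The cortical projection neuron list (14 of 21 tested) had 3 higher and 6 lower genes with the astrocyte medium. The counts were 8 and 4 with the neuron medium and 3 and 5 with the oligodendrocyte medium. Of all tested genes, 35.6%, 39.6% and 32.2% were lower with the 3 media. Nhlh1 and Neurod1 (means of 0.0167 and 0.527 CPM in NSC) passed the filter only through Neuron libraries (1.13 and 0.973 CPM). Their direction with the neuron medium was thus set by the filter. The upper-layer factor Cux2 of this list had 4.93 ± 0.371 CPM in NSC. It rose to 9.32 ± 0.544 and 15.3 ± 3.32 CPM with the astrocyte and neuron media. In the Oligodendrocyte libraries it reached 15.86 and 16.14 CPM.

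**Figure D5:**
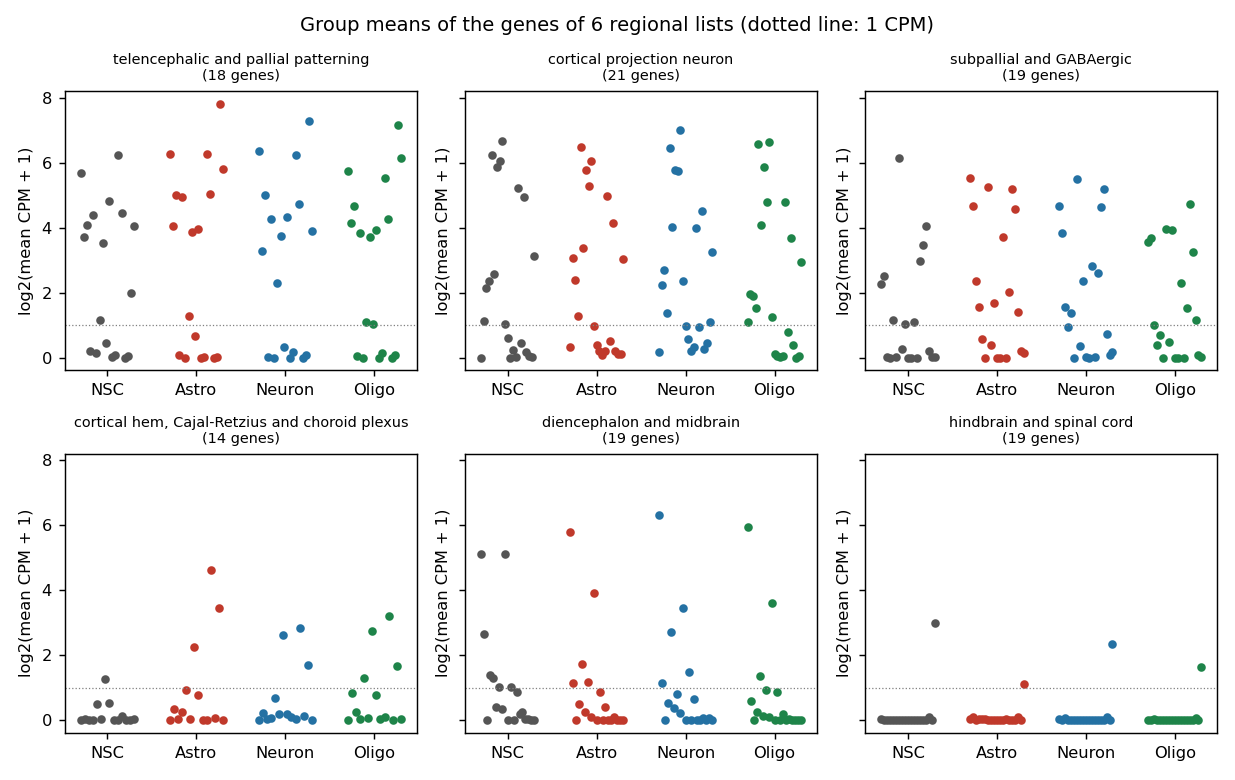
Group means of the genes of 6 regional lists as log2(mean CPM + 1) (y axis), by group (x axis); each point is a gene and the dotted line marks 1 CPM. Hindbrain and spinal cord genes other than Egr2 lie at the bottom of their panel, whereas telencephalic, subpallial and some diencephalic and midbrain genes lie above the line.

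Cofactors of these transcription factors all passed the filter, 17 of 17 listed. With the astrocyte medium 4 rose and 8 fell, with the neuron medium 5 and 8, and with the oligodendrocyte medium 2 and 8. Of all tested genes, 48.0%, 43.5% and 48.1% rose and 35.6%, 39.6% and 32.2% fell in the same order of media. Lmo2 passed the filter only through the Oligodendrocyte libraries (1.04 and 1.17 CPM). Lmo1, a LIM-only protein that competes for the partner Ldb1 of Lhx2, fell from 26.6 ± 2.74 CPM in NSC to 1.06 ± 0.101, 4.34 ± 0.654 and 2.71 ± 0.0495 CPM (log2 fold changes -3.74, -2.38 and -2.90, the largest adjusted p 7.26e-11). Hdac2 fell from 226 ± 4.01 CPM to 76.8 ± 6.47, 99.4 ± 2.54 and 89.2 ± 3.83 CPM. Of the closest relatives of the 9 genes, 4 of 18 passed the filter. Among these Nr2e1 (Tlx), a nuclear receptor of neural stem cells, rose in each medium from 31.4 ± 1.35 CPM to 50.6 ± 2.91, 42.6 ± 1.47 and 41.6 ± 6.06 CPM (the last rise did not pass under median-of-ratios scaling, 0.18, adjusted p = 0.054), and Nr2f6 fell from 40.7 ± 2.00 CPM to 27.3 ± 2.36, 17.5 ± 1.46 and 25.3 ± 0.304 CPM.

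Markers of cell types were summed in the same libraries. The summed level of 10 astrocyte markers, all tested, was 1678 to 1753 CPM in NSC, 14270 to 15757 in Astrocyte, 9072 to 9907 in Neuron and 3528 to 3975 in Oligodendrocyte libraries, and 8 of the 10 were lower in Oligodendrocyte than in Neuron libraries while 1 was higher. Of all tested genes, 23.6% were lower and 43.9% higher in Oligodendrocyte than in Neuron libraries. Gjb6 passed the filter only through Astrocyte and Neuron libraries, so its lower level in Oligodendrocyte libraries (0.610 CPM) was set by the filter. Between Astrocyte and Neuron libraries most markers went against the sum, with 3 of the 10 higher and 6 lower in Astrocyte libraries. There 40.3% of all tested genes were higher and 22.0% lower. Gfap had 7631 CPM in Astrocyte and 2647 in Neuron libraries, whereas Slc1a2 had 270 and 870 CPM. Radial glia markers, 14 with Pax6 included, summed to 9133 to 9322 CPM in NSC, 7804 to 7986 in Astrocyte, 7433 to 7898 in Neuron and 5681 to 5946 in Oligodendrocyte libraries. Among all tested genes, 48.0%, 43.5% and 48.1% were higher than NSC with the astrocyte, neuron and oligodendrocyte media. In the same order 35.6%, 39.6% and 32.2% were lower. The radial glia markers did not move one way. Without Pax6, 6 of 13 were higher and 6 lower than NSC with the astrocyte medium. The counts were 6 and 6 with the neuron medium and 3 and 8 with the oligodendrocyte medium. Tnc, for example, fell from 986 CPM to 15.3, 18.6 and 22.2 CPM, whereas Sox9 rose from 87.7 CPM to 360, 340 and 181 CPM. The 10 oligodendrocyte markers summed to 76.8 to 85.4 CPM in NSC and 467 to 601 in Astrocyte libraries, and to 2792 to 3013 and 2802 to 3210 CPM in Neuron and Oligodendrocyte libraries. The 12 neuron markers, 9 of them tested, summed to 973 to 1059, 833 to 870, 1019 to 1320 and 992 to 1033 CPM in the same order of groups. Map2 made up most of these sums (885, 604, 866 and 654 CPM), and the markers did not move one way. Of the 9 tested, 5 were higher and 4 lower than NSC with the astrocyte medium. The counts were 6 and 2 with the neuron medium and 5 and 4 with the oligodendrocyte medium. They are to be read against the same shares of all tested genes. Rbfox3 (mean of 0.683 CPM in NSC) passed the filter only through day 4 libraries, so its direction was set by the filter. Dcx rose from 1.60 CPM to 125, 148 and 86.6 CPM, whereas Gap43 fell from 71.0 CPM to 13.4, 21.6 and 26.4 CPM. The 8 oligodendrocyte precursor markers summed to 1819 to 1951, 728 to 817, 1655 to 2233 and 1362 to 1486 CPM. Microglial markers were close to absent, with a sum of 0.290 to 1.32 CPM in all libraries. Endothelial and mural markers, 4 of 8 tested, summed to 9.33 to 12.4 CPM in NSC, 87.4 to 97.9 in Astrocyte, 40.6 to 48.0 in Neuron and 21.4 to 22.1 in Oligodendrocyte libraries. In Astrocyte libraries Pdgfrb (41.9 CPM) and Acta2 (42.0 CPM) made up most of the sum, whereas Pecam1 was at 0.120 and Flt1 at 0.0233 CPM, and Cdh5 and Cldn5 were at 0. Fibroblast and meningeal markers, 2 of 8 tested, summed to 36.3 to 38.2, 79.3 to 95.2, 176 to 240 and 78.6 to 79.2 CPM. Most of that was Pdgfra (21.2, 76.9, 211 and 66.2 CPM), also an oligodendrocyte precursor marker, while Col1a1, Col1a2, Col3a1, Dcn and Lum had group means of at most 0.430 CPM. The part of any of these cell types in the levels of the 9 genes was not tested.

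Estimated depth was 49.3 to 66.2 M reads per library, and 1 read was worth 0.0151 to 0.0203 CPM. Mitochondrial genes took 4.54% to 4.71% of NSC and 6.13% to 8.91% of day 4 libraries. The part of this difference in the results against NSC was not tested.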

How the data were processed

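RNA abundance was measured in 11 libraries of 4 groups (NSC 3, Astrocyte 3, Neuron 3, Oligodendrocyte 2), made with a strand-specific poly(A) kit per the labels' protocols. The file deposited by the authors holds CPM values with 2 decimals for 37991 genes, with Ensembl identifiers and mm9 coordinates, per the file headers. The submitters' processing notes name bcl2fastq 1.8.4, TopHat2 2.0.8, HTSeq 0.6.1, edgeR 3.2.4, R 3.0.0, HOMER and build NCBIM37, with no roles. For annotation release, read filters and strand setting: not given in the sources used here. The listed genes summed to 75.0% to 80.2% of the CPM scale, so its denominator held other reads too. The 8 columns of the authors' group means and SDs were not used.

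After log2(CPM + 1) transformation, the 13342 genes that reached 1 CPM in 2 or more libraries entered limma 3.58.1 (R 4.3.3) with group as the only term and eBayes with a trend; residual degrees of freedom were 7 and prior ones 5.96. The 6 contrasts between groups were two-sided, with Benjamini-Hochberg adjustment over all tested genes of a comparison and a threshold of 0.05. The model was tested on simulated data. Low values fell on steps of 1 read (99.7% to 100% of those under 3 CPM), which gave the estimated reads and depths. The deposited values are CPM and not counts, so a linear model of log values was used and no count model. Intervals of read numbers are exact 95% Poisson intervals, and ratios of reads have exact 95% intervals. Levels per kb used GENCODE exon lengths.

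All 9 genes are named. The 2 genes most like each tested one were those with the highest Pearson r among genes with a group mean of at least 10 CPM. From each list, genes were named by the 3 highest group means and the 2 largest changes against NSC, plus genes at 0 where these were counted. A few genes that this rule names are not reported here. The genes and lists were chosen with earlier results of these data known. Emx2os, Pax6os1 and A830082K12Rik were matched by identifier, and Lhx2os and Nr2f2os were not matched. Alternatives were other pseudocounts, filters, scalings and fits, a replicate block, and leaving out each library.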

Additional observations from a re-analysis of the deposited data

Results flagged for a closer look

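Pax6 and Nr2f1 are set out here because a day 4 medium moved them against NSC where another did not, and the media differed when compared directly. Pax6 was called higher than NSC in Astrocyte and Neuron libraries and not in Oligodendrocyte libraries. The direct limma differences were -1.05 for Oligodendrocyte against Neuron (SE 0.073, adjusted p = 4.36e-08) and -1.15 against Astrocyte libraries (SE 0.073, adjusted p = 3.87e-08).

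Nr2f1 was called lower than NSC in Oligodendrocyte libraries and, with CPM as deposited, not in the other media. In Astrocyte libraries it was called lower than NSC with median-of-ratios scaling (-0.29, adjusted p = 0.0056) and after quantile normalization (-0.19, adjusted p = 0.041). The direct differences were -0.72 against Neuron (SE 0.092, adjusted p = 1.33e-05) and -0.62 against Astrocyte libraries (SE 0.092, adjusted p = 8.8e-05). In each of these 4 comparisons both Oligodendrocyte libraries lay below all 3 libraries of the other group.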

How the results depend on the processing

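Of 28 called values of the 6 tested genes, 22 kept direction and call in each of the 21 alternatives that tested the gene, and 6 lost the call in at least 1. With a filter of 5 CPM, Nr2f2 and Neurog2 were not tested and the counts of called genes fell to 3 (Astrocyte vs NSC), 3 (Neuron vs NSC), 3 (Oligodendrocyte vs NSC), 1 (Astrocyte vs Neuron) and 3 (Oligodendrocyte vs Astrocyte). For Astrocyte vs Neuron the count was 4 with median-of-ratios scaling and 5 after quantile normalization, and leaving out a library gave 3 to 5 for Neuron vs NSC (3 without NSC replicate 3 or Neuron replicate 3). Where an Oligodendrocyte library was left out, the lone one was assumed to vary like the other groups.

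One called value changed sign, Neurog2 in Astrocyte vs NSC (-0.16 under quantile normalization). Values that had not been called also did. Nr2f1 in Neuron vs NSC was 0.06 under quantile normalization and 0.02 scaled to listed genes outside the mitochondrial genome (-0.06 to 0.05 over leave-outs). Pax6 in Oligodendrocyte vs NSC was -0.16 with median-of-ratios scaling and -0.06 after quantile normalization (-0.04 to 0.14 over leave-outs), and in Astrocyte vs Neuron -0.01 under median-of-ratios scaling. Lhx2 in Oligodendrocyte vs Astrocyte was -0.03, -0.08 and -0.02 under the median-of-ratios, quantile and listed-gene scalings (-0.12 to 0.13 over leave-outs). The log2 ratio of Nr2f1 to Nr2f2 with a pseudocount of 5 CPM in Oligodendrocyte libraries differed by -0.02 from NSC, -0.17 from Neuron and -0.15 from Astrocyte libraries, and between Astrocyte and Neuron libraries by -0.02 (-0.04 to 0.08 over leave-outs with the usual pseudocount). Ratios without a pseudocount were chosen after seeing the data. Some values gained a call: Nr2f1 in Astrocyte vs NSC (-0.29 and -0.19) and in Astrocyte vs Neuron (-0.20 and -0.26) with median-of-ratios scaling and after quantile normalization, Emx2 in Astrocyte vs Neuron under those (-0.24 and -0.32), the listed-gene scaling (-0.19) and without Astrocyte replicate 1 (-0.21), and Nr2f2 there after quantile normalization (-0.36). The cause of these changes was not tested.

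Same-numbered libraries of different groups had deviations from their group means correlated from -0.505 to 0.415 (median 0.0349). Differently numbered libraries ran from -0.536 to 0.541 (median -0.00721), so replicate numbers showed no pairing. Deviations within a group of 2 or 3 libraries sum to 0, so these values cannot exclude a shared culture or litter. With the replicate block 5, 5, 5, 2, 6 and 5 of the 6 genes were called, in the order Astrocyte, Neuron and Oligodendrocyte vs NSC, Astrocyte vs Neuron, and Oligodendrocyte vs Neuron and vs Astrocyte, and 11146, 11079, 10596, 8265, 8894 and 6793 genes in all, and no call of a member gene changed. Depth limits Emx1, Eomes and Tbr1, for which 3 reads are worth 0.045 to 0.061 CPM in a library.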
